A study of Mus musculus with 4 samples.

Results

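S-opsin-rich cones are the cone photoreceptors of mouse retina in which most opsin transcript is Opn1sw, the short-wavelength (S) opsin. They were picked from single-cell counts by 4 limits: mitochondrial UMIs (unique molecular identifiers, 1 per captured RNA molecule) of at most 20%, at least 2000 UMIs in all, at least 15 UMIs and 0.5% of UMIs from the cone genes Arr3, Pde6h, Gnat2, Pde6c and Gngt2, and at least 5 UMIs of Opn1sw and Opn1mw together with an opsin fraction, Opn1sw over the sum of both opsins, of 0.7 or more. The limits left 366 members among 733 cones with enough opsin UMIs and among 35191 barcodes in all. Wild-type (WT) retinas gave 92 (female) and 87 (male) of them and NLGF retinas 89 (female) and 98 (male). Another 268 cones had an opsin fraction of 0.3 or less and are called M-opsin-rich cones here, and 99 lay between the limits.

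The study dissociated 4 retinas of mice 30 days old, each a library of its own, from 2 WT and 2 NLGF animals with a female and a male of each genotype. Where 4 values stand in a row, they are those of the female and male WT retina, then of the female and male NLGF retina. NLGF mice, labelled nlgf, carry a knock-in App allele with a humanised amyloid beta sequence. The allele also holds the Swedish, Arctic and Iberian mutations of familial Alzheimer's disease. The allele is driven by the mouse App promoter, so it is active wherever App is. The title places an endoplasmic reticulum stress response in Müller glia, and the comparison here asks which transcripts of S-opsin-rich cones differ between the genotypes. No treatment was given in the labels, and with 2 animals per genotype the spread between libraries holds animal and preparation differences together.

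Cones carry daylight vision. Light activates the opsin, the opsin activates cone transducin (Gnat2, Gnb3, Gngt2), and transducin releases the phosphodiesterase (Pde6c, Pde6h) that breaks down cGMP and closes the channels of the outer segment. Arr3, cone arrestin, ends the signal of the opsin. Most mouse cones make both opsins in amounts that follow a dorsal to ventral gradient, with Opn1mw, the middle-wavelength (M) opsin, high dorsally and Opn1sw high ventrally, and a small population makes S opsin alone. Thyroid hormone receptor beta (Thrb) is needed for M opsin, and homeobox factors of the Crx and Otx family bind photoreceptor promoters at sites with a TAATC core.

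The promoter windows of both opsins and of Ccdc136, the gene next to Opn1sw that had the smallest p between the classes below, are shown because the classes are cut by the opsins. They come from RefSeq (build GRCm38.p6) and run from 250 bases before the annotated start to 50 bases after it, 5′ to 3′ on the gene's strand. Capitals mark TAATC or its reverse complement GATTA, searched on both strands. The windows are chr6:29380464-29380763 (minus strand) for Opn1sw, chr6:29396325-29396624 (plus strand) for Ccdc136 and chrX:74127216-74127515 (plus strand) for Opn1mw.
Opn1sw: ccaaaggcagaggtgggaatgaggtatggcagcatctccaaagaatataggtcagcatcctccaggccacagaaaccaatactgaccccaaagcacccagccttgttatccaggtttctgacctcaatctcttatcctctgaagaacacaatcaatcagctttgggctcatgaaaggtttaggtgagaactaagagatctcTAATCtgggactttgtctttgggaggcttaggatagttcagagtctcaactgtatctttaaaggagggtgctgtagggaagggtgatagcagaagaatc
Ccdc136: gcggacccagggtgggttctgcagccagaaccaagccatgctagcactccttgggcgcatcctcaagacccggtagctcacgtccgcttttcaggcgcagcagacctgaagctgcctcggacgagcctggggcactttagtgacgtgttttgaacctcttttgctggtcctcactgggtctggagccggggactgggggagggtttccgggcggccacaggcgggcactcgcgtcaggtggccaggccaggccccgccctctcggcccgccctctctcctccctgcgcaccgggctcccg
Opn1mw: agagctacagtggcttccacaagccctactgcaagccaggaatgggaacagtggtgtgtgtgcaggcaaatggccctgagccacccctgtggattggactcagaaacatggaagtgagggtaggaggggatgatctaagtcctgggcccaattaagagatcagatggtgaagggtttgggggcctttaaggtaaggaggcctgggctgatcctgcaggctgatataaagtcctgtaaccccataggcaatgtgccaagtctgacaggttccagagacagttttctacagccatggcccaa
The Opn1sw window held 1 match, with its first base at position −49 when the annotated start is counted as 0, and the windows of Ccdc136 and Opn1mw held 0. The longer form TAATCC or GGATTA, which contains the core, was in none of these 3 windows and in 7.06% of all 32851 windows. The core was in 22% of all windows, and in 19.1% of the tested genes with a window (6440 genes), 33.3% of 39 that were higher and 39.3% of 28 that were lower in S-opsin-rich than in M-opsin-rich cones. A match describes the letters and says nothing of binding.

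Before the comparisons, each member gave a median of 8930.5 UMIs, 3222.5 detected genes and 8.81% mitochondrial UMIs. Summed over members, the libraries held between 811691 and 872858 UMIs. No member barcode was shared between libraries (0 in each of the 6 pairs). Of the given markers, all 5 (Opn1sw, Arr3, Pde6h, Gnat2, Gngt2) were detected in every sum, at 31770 to 36020 CPM (counts per 1000000 UMIs of the sum) together. Among markers of other cells, the 4 of pigment epithelium (Rpe65, Ttr, Pmel, Rgr) had 0 UMIs in every sum. The 10 rod markers were all present, at 9711 to 12507 CPM together, and the 7 Müller glia markers at 308 and 478 CPM in WT and at 407 and 1213 CPM in NLGF, the highest in the NLGF female. All 7 Müller markers were detected in every library. The 8 bipolar cell markers had 165 to 763 CPM together, and the 6 microglia markers 54.7 CPM in the NLGF male and 9.37 to 12.3 CPM in the other libraries. The part of rod and Müller RNA in the results below was not tested, apart from the values without barcodes rich in such markers.

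The genes of the rule are described without a test, since they chose the cells. Opn1sw had 11203, 11407, 10336 and 11978 CPM in S-opsin-rich cones, all within a narrow band. In M-opsin-rich cones of the same libraries it had between 62.9 and 196 CPM. Opn1mw had 1408 to 1807 CPM in S-opsin-rich and 4980 to 6235 CPM in M-opsin-rich cones, so M opsin RNA was present in both classes. Arr3 averaged 2287 ± 155 CPM in S-opsin-rich against 3398 ± 437 CPM in M-opsin-rich cones (SD, n = 4 libraries), and the sums did not overlap. Pde6h, the inhibitory subunit of the cone phosphodiesterase, averaged 10977 ± 897 against 10757 ± 884 CPM. Gnat2 averaged 3257 ± 210 against 2850 ± 402 CPM, Pde6c 1207 ± 39.4 against 1152 ± 159 CPM, and Gngt2 6957 ± 529 against 5716 ± 660 CPM. For these 4 genes the ranges of the classes overlapped.

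The opsin fraction was two-peaked over all cones, and the limit at 0.7 fell on the rising side of the upper peak. Members had a median fraction of 0.883, and 97 of the 366 had 0 UMIs of Opn1mw. The 36 members with a fraction of 0.7 to 0.75 had medians of 90.5 Opn1sw and 37 Opn1mw UMIs. The 18 cones just outside, at 0.65 to 0.7, had medians of 93.5 and 42.5 UMIs. Medians on either side of the limit were close for both opsins. As a background for detection, Opn1sw had a UMI in 4.16% to 6.5% of barcodes that were not cones, at a median depth of 2781 to 3175 UMIs per library.

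**Figure D1:**
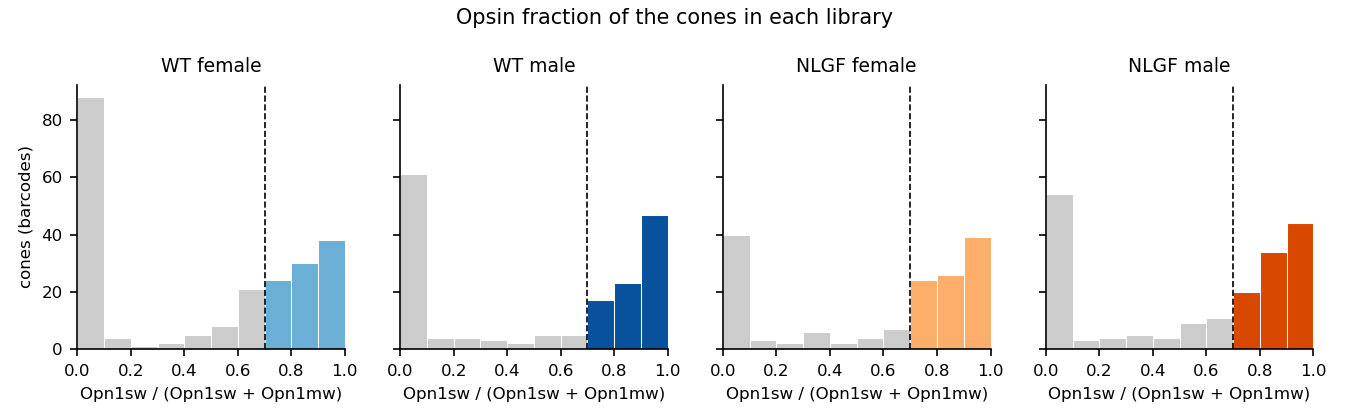
Number of cones (barcodes, vertical axis) in each bin of width 0.1 of the opsin fraction Opn1sw / (Opn1sw + Opn1mw) (horizontal axis), by library. Coloured bars right of the dashed line at 0.7 are the S-opsin-rich cones (92 and 87 in the female and male WT retina, 89 and 98 in NLGF), and grey bars are the other cones.

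Of all cones with enough opsin UMIs, S-opsin-rich cones were 41.6% (exact 95% interval 35.1 to 48.4) and 50.9% (43.1 to 58.6) in WT, female and male. In NLGF they were 58.2% (49.9 to 66.1) and 52.1% (44.7 to 59.5). The intervals cover counting error only. Both NLGF shares lay above both WT shares, by 8.90 percentage points on average. That order broke under 2 other limits: at an opsin fraction of 0.9 or more the WT male (27.5%) lay above both NLGF retinas (25.5% and 23.4%), and with mitochondrial UMIs of at most 10% the WT male (51.8%) lay above the NLGF male. The exact two-sided permutation p of 0.333 is the smallest that 2 against 2 libraries can give. The highest WT and lowest NLGF share were close to each other and their intervals overlapped. The share also depends on the number of other cones: M-opsin-rich cones numbered 93, 69, 45 and 61. Of all barcodes, S-opsin-rich cones were 1.02%, 0.959%, 1.10% and 1.09%.

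Compared with M-opsin-rich cones of the same retinas, S-opsin-rich cones had higher Ccdc136 and higher Vax2 and En2, ventral and developmental transcription factors. They also had higher Eya1, a transcriptional cofactor, and higher Socs3 and Ngfr, signalling genes. They had lower Nr2f2 and Samd7, a pair of transcriptional repressors, and lower Smug1. In all, 94 of 8077 tested genes differed (1.16%, edgeR's quasi-likelihood test with the library as a block, Benjamini-Hochberg adjusted p under 0.05), 58 higher (0.718%) and 36 lower (0.446%) in S-opsin-rich cones. At an unadjusted p under 0.05 there were 813 (10.1%). DESeq2 called 41, all of them among the 94, and edgeR 62 without the WT male. Rod markers together had 9711 to 12507 CPM in the first class and 9223 to 29837 CPM in the second, and Müller markers 308 to 1213 and 230 to 1589 CPM.

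Ccdc136 encodes a coiled-coil protein and lies beside Opn1sw. In GENCODE on GRCm38 it spans chromosome 6 from 29396309 to 29426994 on the plus strand, and Opn1sw spans 29376671 to 29388468 on the minus strand, so that the genes point away from each other with 7840 bases between them. The RefSeq start used for the printed window of Opn1sw lies inside its GENCODE span, farther from Ccdc136, so this gap holds for GENCODE only. Ccdc136 had 1666, 1701, 1540 and 1607 CPM in S-opsin-rich cones, and 69.3, 162, 104 and 146 CPM in M-opsin-rich cones. The lowest S-opsin-rich sum was far above the highest M-opsin-rich sum. The log2 fold change was 3.79 ± 0.15 (SE, n = 4 libraries, edgeR adjusted p = 8.62e-10). Its other neighbours did not pass the test: Calu, a calcium-binding protein gene of the secretory pathway whose end overlaps that of Opn1sw on the opposite strand, had a log2 fold change of 0.63 ± 0.17 (edgeR adjusted p = 0.107), and Atp6v1f, a subunit of the vacuolar proton pump, −0.05 ± 0.10 (edgeR adjusted p = 0.919). Flnc, between Ccdc136 and Atp6v1f, had 0 UMIs in both classes.

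Several higher genes were nearly absent from M-opsin-rich cones. En2, an engrailed homeobox factor, had 43.3, 36.9, 19.8 and 26.8 CPM in the S-opsin-rich sums, against 1.15 CPM in the M-opsin-rich cones of the WT female and 0 in the other M-opsin-rich sums. That is 106 against 1 UMI, a ratio of 87.8 with a counting interval of 15.4 to 3501 (edgeR adjusted p = 1.95e-05). Cdkl1, a protein kinase of the cyclin-dependent family, had 45 UMIs against 0, which is at least 12.4-fold higher when the empty class is set to 3 counts in total (edgeR adjusted p = 0.00672). Without the NLGF male its edgeR adjusted p was 0.0546. Wscd2, a membrane protein with a sulfotransferase domain, had 98 against 6 UMIs, a ratio of 13.5 (edgeR adjusted p = 0.00284), and DESeq2 gave an adjusted p of 0.209. Each of these genes was higher in all 4 libraries, which the rule that named them required.

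Vax2, the homeobox factor that marks ventral retina, had 32.2, 18.4, 23.2 and 24.3 CPM against 4.62, 0, 5.68 and 4.87 CPM (log2 fold change 2.74 ± 0.45, edgeR adjusted p = 0.00345, and 0.0532 without the WT female). Nr2f2, the orphan nuclear receptor COUP-TFII of dorsal retina, went the opposite way, with 4 UMIs in all S-opsin-rich sums and 82 in all M-opsin-rich sums. Per library it had 0, 1.15, 1.16 and 2.43 CPM against 24.2, 37.4, 26.5 and 29.2 CPM, a log2 fold change of −4.46 ± 0.49 (edgeR adjusted p = 9.02e-05). The sums of both genes did not overlap between classes. Of the 22 listed genes of dorsal and ventral patterning, 3 were expressed enough to be tested, and Vax2, Ccdc136 and Nr2f2 all differed, 2 higher and 1 lower. A gene of this list reaches the test only where it is expressed in some class, so the count is no measure of the list. The list also held Ccdc136, the coiled-coil gene beside Opn1sw, and was chosen with earlier results of these data known.

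Socs3, an inhibitor of cytokine receptor signalling, had 31.0, 41.5, 47.7 and 43.8 CPM against 4.62, 9.02, 0 and 1.62 CPM, a log2 fold change of 3.20 ± 0.40 (edgeR adjusted p = 0.000402). Ngfr, the low-affinity neurotrophin receptor, had 54.2 to 61.9 against 8.11 to 16.8 CPM (log2 fold change 2.27 ± 0.24, edgeR adjusted p = 5.82e-05). Syndig1l, a relative of a synapse-inducing membrane protein, averaged 171 ± 45.0 against 27.5 ± 11.3 CPM (SD, n = 4), and Cacna1h, a T-type calcium channel, 54.6 to 81.6 against 3.46 to 29.2 CPM. Ralyl, an RNA-binding protein, averaged 55.9 ± 9.52 against 9.33 ± 7.23 CPM, Eya1, a transcriptional cofactor with phosphatase activity, 32.5 ± 4.49 against 7.48 ± 2.05 CPM, and Srcin1, an inhibitor of the kinase Src, 52.5 ± 15.8 against 12.7 ± 8.16 CPM. These 5 genes had log2 fold changes from 1.97 to 2.63 and edgeR adjusted p from 3.18e-07 to 0.00519. All were higher in each library, which the naming rule required.

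Among the lower genes, Samd7, a photoreceptor repressor that works with Polycomb proteins, had 33.4, 25.3, 30.2 and 25.6 CPM in S-opsin-rich against 110, 103, 163 and 119 CPM in M-opsin-rich cones. Its log2 fold change was −2.09 ± 0.16 (edgeR adjusted p = 2.32e-06), and the sums lay far apart. Smug1, a DNA glycosylase that removes uracil, had 45.8, 69.1, 29.1 and 73.0 against 283, 278, 201 and 245 CPM (−2.22 ± 0.15, edgeR adjusted p = 4.49e-07). Kpna2, an importin that carries proteins into the nucleus, averaged 55.2 ± 8.15 against 143 ± 15.2 CPM (−1.38 ± 0.12), Gzmm, a granzyme protease, 265 ± 40.3 against 474 ± 50.8 CPM (−0.84 ± 0.08), and Ppa1, the cytosolic pyrophosphatase, 240.1 ± 39.9 against 422 ± 49.5 CPM (−0.82 ± 0.09). For these 5 genes the classes did not overlap in level.

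The other lower genes rested on smaller counts and fewer settings. Spred3, an inhibitor of Ras signalling, had a log2 fold change of −1.03 ± 0.16 and Dnaja4, a co-chaperone, of −0.94 ± 0.15, with edgeR adjusted p of 0.00213 and 0.00389 and DESeq2 adjusted p of 0.0611 and 0.275. Tbc1d2, which switches off a Rab GTPase, was lower by a log2 fold change of −2.14 ± 0.39 (edgeR adjusted p = 0.00868, and 0.0721 and 0.0624 without the WT female and the WT male). Chrnb4, a nicotinic receptor subunit, had −1.34 ± 0.29 (edgeR adjusted p = 0.0308, and 0.0940 to 0.228 without the WT female, the WT male or the NLGF female in turn). Itprid2 had −1.13 ± 0.23 and Gabrr3, a GABA receptor subunit, −1.11 ± 0.25, with edgeR adjusted p of 0.0205 and 0.0433. Leaving out the WT female, the WT male or the NLGF male gave 0.0607 to 0.231 for Itprid2 and 0.0697 to 0.375 for Gabrr3. Apela, a secreted peptide hormone, had −1.10 ± 0.22 (edgeR adjusted p = 0.0161, 0.207 without the WT male and 0.0957 without the NLGF male), and Cit, a kinase of cytokinesis, averaged 45.1 ± 16.8 against 89.4 ± 18.3 CPM (0.00502, and 0.0565 without the NLGF male). DESeq2 called none of these 6 genes, with adjusted p of 0.108 for Cit, 0.124 for Tbc1d2, 0.298 for Apela, 0.697 for Itprid2 and 0.9999 for Chrnb4 and Gabrr3.

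**Figure D2:**
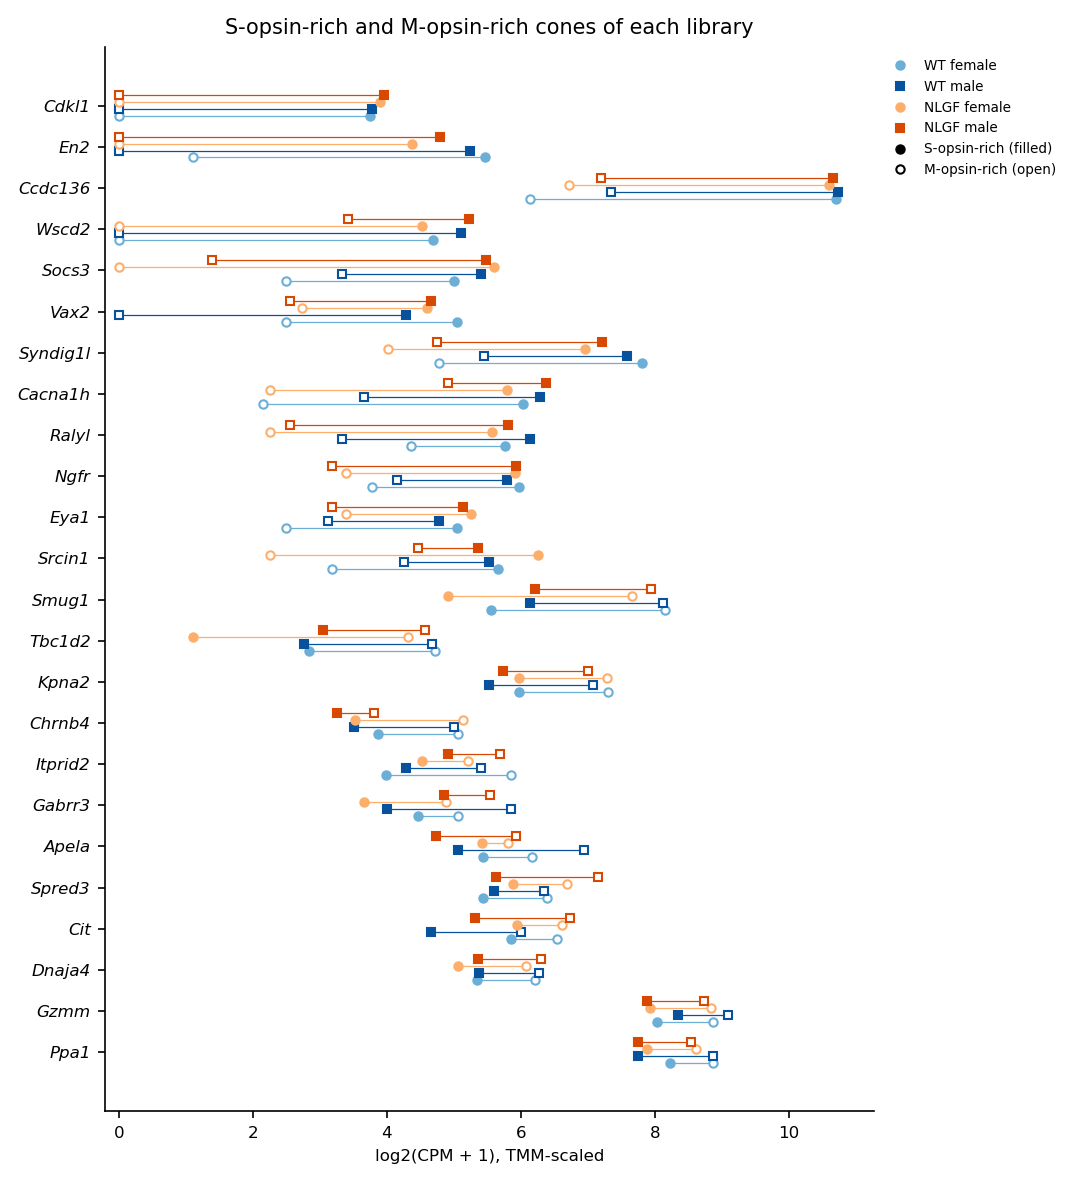
Level of the 12 most increased and 12 most decreased genes by the naming rule, as log2(CPM + 1) with TMM scaling (horizontal axis), in S-opsin-rich cones (filled) and M-opsin-rich cones (open) of each of the 4 libraries (colours). Within each library the filled marker lies right of the open one for Cdkl1 to Srcin1 and left of it for Smug1 to Ppa1, with log2 fold changes of 3.79 for Ccdc136 and −2.22 for Smug1. The naming rule required the same direction in all 4 libraries.

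Of 23 measured genes of cone phototransduction outside the rule, 3 were higher and 1 lower in S-opsin-rich cones, with a list median of 0.08 against −0.003 over all tested genes (log2). Guca1a, which activates guanylate cyclase when calcium falls, had 4283, 4350, 3834 and 4171 CPM against 2871, 2941, 2840 and 2499 CPM, and its sums did not overlap. Its log2 fold change was 0.58 ± 0.07 (edgeR adjusted p = 0.000188). Gnb3, the beta subunit of cone transducin, averaged 2681 ± 192 against 1995 ± 233 CPM (0.43 ± 0.07, edgeR adjusted p = 0.00227, and 0.0624 without the WT male). Sag, the visual arrestin of rods, which is also made in cones, averaged 5531 ± 509 against 4228 ± 509 CPM (0.39 ± 0.07, edgeR adjusted p = 0.00442, and 0.154 and 0.107 without the WT female and the WT male). Gucy2f, a retinal guanylate cyclase, was lower by −1.12 ± 0.26 with an edgeR adjusted p of 0.0498, which rose to between 0.107 and 0.382 when the WT female, the WT male or the NLGF female was left out, and DESeq2 gave 0.9999.

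Other lists gave few calls. In the rod list 1 of 12 was lower, the phosphodiesterase subunit Pde6a (−0.90 ± 0.18, edgeR adjusted p = 0.0161), with a list median of −0.69. Without barcodes rich in markers of rods or other types, an alternative chosen after seeing the data, the value of Pde6a was −0.30 (edgeR adjusted p = 0.258) and the list median −0.14, with 4 of 12 genes above 0. Without the WT female the edgeR adjusted p of Pde6a was 0.164, and DESeq2 gave 0.9999 for Pde6a. Of 23 photoreceptor transcription factors Samd7 alone passed, and the list median was −0.03. Thrb had 434, 384, 318 and 324 CPM against 523, 533, 407 and 359 CPM, with a log2 fold change of −0.31 ± 0.08 that missed the threshold (edgeR adjusted p = 0.0951), and its dimer partner Rxrg 0.51 ± 0.16 (edgeR adjusted p = 0.198). Among 21 outer segment and cilium genes, Cdhr1, a cadherin at the base of the outer segment, was lower by −0.51 ± 0.07 (edgeR adjusted p = 0.00136), and Rp1l1, a protein of the axoneme, by −0.48 ± 0.08 (edgeR adjusted p = 0.00679, and 0.0907 without the WT male; DESeq2 adjusted p = 0.130).

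Few metabolic and stress genes passed the test between the classes. Ldhb, a lactate dehydrogenase subunit, was the 1 lower gene of 20 in glycolysis (52.5 ± 3.79 against 99.7 ± 9.59 CPM, −0.93 ± 0.14, edgeR adjusted p = 0.00213, DESeq2 adjusted p = 0.0964). At an unadjusted p under 0.05 were 7 of the 20, where 10.1% of all tested genes were. Cox8a, a subunit of cytochrome oxidase, was the 1 higher gene of 56 in the nuclear respiratory chain (2340 ± 116 against 1699 ± 182 CPM, 0.47 ± 0.07, edgeR adjusted p = 0.00136, and 0.0739 without the WT female). Ddit3, which encodes the stress factor CHOP, was the 1 higher gene of 15 in the PERK/ATF4 list (118 ± 14.1 against 76.6 ± 7.73 CPM, 0.63 ± 0.12, edgeR adjusted p = 0.0157). The call of Ddit3 was lost without the WT female, the WT male or the NLGF male (edgeR adjusted p of 0.107, 0.145 and 0.0876), and the DESeq2 adjusted p was 0.879. No gene passed among 25 synaptic genes, 8 of the visual cycle, 25 ER chaperones, 19 of heat shock and oxidative defence, 13 encoded in mitochondria, 11 immediate early genes, 13 clock genes, 13 of App and its secretases and 9 p53 targets.

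Members differed among themselves along the opsin fraction. The 128 with a fraction of 0.95 or more, almost all of their opsin being S opsin, made up 29.3%, 43.7%, 38.2% and 29.6% of the members. Compared with the other 238 members they had lower Thrb, Rd3l, Pgc and Kcne2 and higher Nrxn3, Ralyl and Guca1b. Of 6122 tested genes 121 differed (1.98%), 37 higher (0.604%) and 84 lower (1.37%) at an edgeR adjusted p under 0.05 with the library as a block, and 782 had an unadjusted p under 0.05 (12.8%). DESeq2 called 47, and edgeR 73 without the WT female and 52 without the WT male. This high range also had fewer UMIs per barcode (median 7963 against 9292), fewer UMIs of the 5 cone genes (191.5 against 261), fewer mitochondrial UMIs (7.30% against 9.37%) and more rod marker RNA (10483 to 18742 CPM for all 10 markers against 8870 to 11632 CPM). The part of depth in the differences was not tested.

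Thrb had 158, 158, 173 and 102 CPM in the high range, and 545, 558, 398 and 402 CPM in the members at 0.7 to 0.95. The ranges stood far apart in every library, with a log2 fold change of −1.67 ± 0.13 (SE, n = 4, edgeR adjusted p = 9.54e-07). Over all cones, raw CPM of Thrb averaged 455 ± 83.2 at a fraction of 0.3 or less, 524 ± 143 between the limits, 472 ± 84.2 at 0.7 to 0.95 and 149 ± 30.8 at 0.95 or more (SD, n = 4 libraries). Its level was thus low in the top range alone, among these 4 ranges. Rxrg did not follow it (0.28 ± 0.22, edgeR adjusted p = 0.671).

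Rd3l, a relative of the guanylate cyclase regulator Rd3, had 232, 293, 156 and 55.9 CPM in the high range and 1126, 969, 618 and 690 CPM at 0.7 to 0.95, a log2 fold change of −2.19 ± 0.17 (edgeR adjusted p = 9.54e-07). Pgc, the precursor of a pepsin-like protease, averaged 63.5 ± 46.6 against 322 ± 65.2 CPM (−2.33 ± 0.25, edgeR adjusted p = 2.79e-05). Kcne2, an accessory subunit of potassium channels that was named after its values were seen, had −1.13 ± 0.09 (edgeR adjusted p = 1.27e-06). Over the 4 ranges its raw CPM averaged 615, 1086, 1113 and 517, so it was higher in S-opsin-rich than in M-opsin-rich cones (0.59 ± 0.08, edgeR adjusted p = 0.0011) and yet lowest where M opsin was nearly gone. Apela, Tenm4, a teneurin adhesion protein, and Nptx2, a pentraxin secreted at synapses, were lower, at 10.3 ± 7.46 against 48.2 ± 9.71 CPM, 10.4 ± 5.42 against 42.4 ± 6.42 CPM and 5.48 ± 6.59 against 31.0 ± 5.27 CPM, with edgeR adjusted p of 0.00346, 0.00835 and 0.0332. Nptx2 had 7 UMIs in the high range, and its edgeR adjusted p lay between 0.0661 and 0.168 when any one library was left out. Without the WT male the values of Apela and Tenm4 were 0.0605 and 0.0564, and without the NLGF female that of Tenm4 was 0.0766.

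Nrxn3, a presynaptic adhesion protein, had 372, 585, 376 and 582 CPM in the high range against 67.5, 75.6, 143 and 47.8 CPM, a log2 fold change of 2.52 ± 0.23 (edgeR adjusted p = 3.78e-06). Its raw CPM averaged 98.7 and 98.8 in the ranges up to 0.7, so the gene was high in the top range only, among the 4 ranges. Wscd2 averaged 63.1 ± 24.3 against 14.1 ± 4.69 CPM and Ralyl 112 ± 24.8 against 29.5 ± 5.17 CPM, with log2 fold changes of 2.12 ± 0.32 and 1.90 ± 0.23 (edgeR adjusted p of 0.000848 and 9.10e-05). Klhl41, a kelch protein, had 2.10 ± 0.42 (edgeR adjusted p = 0.00931, and 0.187 and 0.0969 without the WT female and the WT male). Sbf2, a myotubularin-related protein, had 1.34 ± 0.24 (edgeR adjusted p = 0.00428).

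Some genes that set S-opsin-rich apart from M-opsin-rich cones passed the test within the members too, and others did not. Ccdc136 had a log2 fold change of −0.01 ± 0.08 between the ranges (edgeR adjusted p = 0.976), and its raw CPM averaged 121, 1011, 1625 and 1629 over the 4 ranges of rising fraction. Smug1 (−0.06 ± 0.25), En2 (0.05 ± 0.42), Vax2 (0.56 ± 0.40), Samd7 (−0.65 ± 0.41) and Ngfr (−0.52 ± 0.24) did not pass either, with errors that leave room for a difference. Of the called genes, 14 passed in both comparisons (14.9% of the 94 and 11.6% of the 121, where 1.98% and 1.16% of all tested genes were called between the ranges and between the classes), 12 with the same sign, such as Wscd2, Ralyl, Cacna1h, Ppa1, Gzmm and Apela. Kcne2 and Syndig1l changed sign. The comparisons share the member cells, so this overlap is a description.

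**Figure D3:**
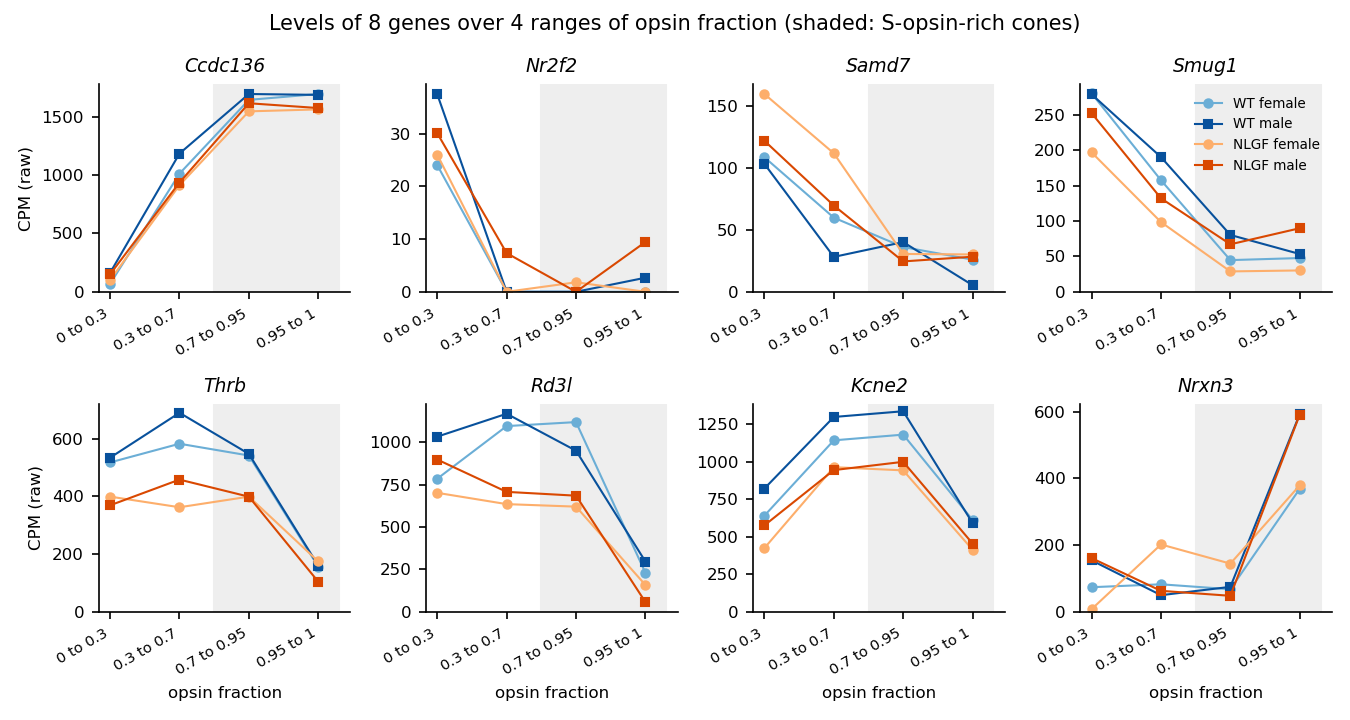
Raw CPM (vertical axis, from 0) of 8 genes in the sums of each library (colours) over 4 ranges of the opsin fraction (horizontal axis), with the ranges of S-opsin-rich cones shaded. Ccdc136 climbs to about its full level by 0.7 to 0.95, where it averaged 1625 CPM, whereas Thrb, Rd3l and Kcne2 drop and Nrxn3 climbs in the last range.

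Phototransduction genes moved in both directions between the ranges. Of 22 measured cone genes of the list, Guca1b, a second calcium sensor of guanylate cyclase, and Pdc, phosducin, which binds transducin subunits, were higher in the high range, and Pde6d, which carries prenylated proteins, and Rcvrn, recoverin, were lower. Guca1b had 573, 385, 605 and 568 CPM against 199, 184, 201 and 311 CPM, a log2 fold change of 1.26 ± 0.12 (edgeR adjusted p = 1.18e-05). Pdc averaged 4600 ± 608 against 3099 ± 140.4 CPM (0.56 ± 0.09, edgeR adjusted p = 0.00236) and Pde6d 280 ± 18.9 against 441 ± 52.6 CPM (−0.65 ± 0.11, edgeR adjusted p = 0.00230, and 0.0572 without the WT male). Rcvrn had −0.36 ± 0.09 (edgeR adjusted p = 0.0486), a call lost without any one of the 4 libraries (0.0504 to 0.291) and in DESeq2 (0.0781). Cabp4, a calcium-binding protein of the photoreceptor synapse, was the 1 of 24 synaptic genes to pass, lower by −0.66 ± 0.11 (edgeR adjusted p = 0.00291, and 0.0529 without the WT male).

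Rod transcripts went with the high range. All 12 genes of the rod list had positive values, with a median of 0.80 against 0.01 over all tested genes, and Gngt1, the gamma subunit of rod transducin, passed (0.40 ± 0.09, edgeR adjusted p = 0.0191, and 0.0655 to 0.110 without any one library). Without barcodes rich in markers of other types the list median was −0.10 and 3 of the 12 were positive, so the direction of the list turned. In that setting Guca1b kept a log2 fold change of 1.04 (edgeR adjusted p = 9.87e-06) and Pdc of 0.43 (0.00157), while Thrb had −1.66, Rd3l −2.07, Kcne2 −1.05 and Nrxn3 2.73.

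Mitochondrial transcripts were lower in the high range. All 13 mitochondrially encoded genes had negative values, with a median of −0.28, and mt-Nd5, a subunit of complex I, passed (−0.40 ± 0.09, edgeR adjusted p = 0.0205, and 0.184 and 0.161 without the WT male and the NLGF male). Without barcodes rich in other types' markers 11 of the 13 passed, all lower, with a median of −0.40. The cells were filtered on the mitochondrial share, which was lower in this range. Among 56 nuclear genes of the respiratory chain, those that passed included Atp5k, which was higher (0.68 ± 0.11, edgeR adjusted p = 0.00177), and Atp5g1, which was lower (−0.42 ± 0.09, edgeR adjusted p = 0.0158), both subunits of ATP synthase. The call of Atp5g1 was lost without the WT female, the WT male or the NLGF male (0.0739 to 0.112). Hk2, the hexokinase of the first step of glycolysis, was the 1 higher gene of 20 in its list (0.36 ± 0.09, edgeR adjusted p = 0.0348) and Per3, a clock repressor, the 1 lower of 12 clock genes (−0.73 ± 0.17, 0.0292). Both calls were lost without any one library (0.106 to 0.181 for Hk2, 0.0887 to 0.162 for Per3), and DESeq2 gave adjusted p of 0.227 for Hk2, 0.683 for Per3 and 0.213 for Atp5g1. No gene passed among 20 outer segment genes, 7 of the visual cycle, 2 patterning genes, 11 of the PERK/ATF4 list, 22 ER chaperones, 18 of heat shock, 9 immediate early genes, 9 of App processing and 5 p53 targets.

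**Figure D4:**
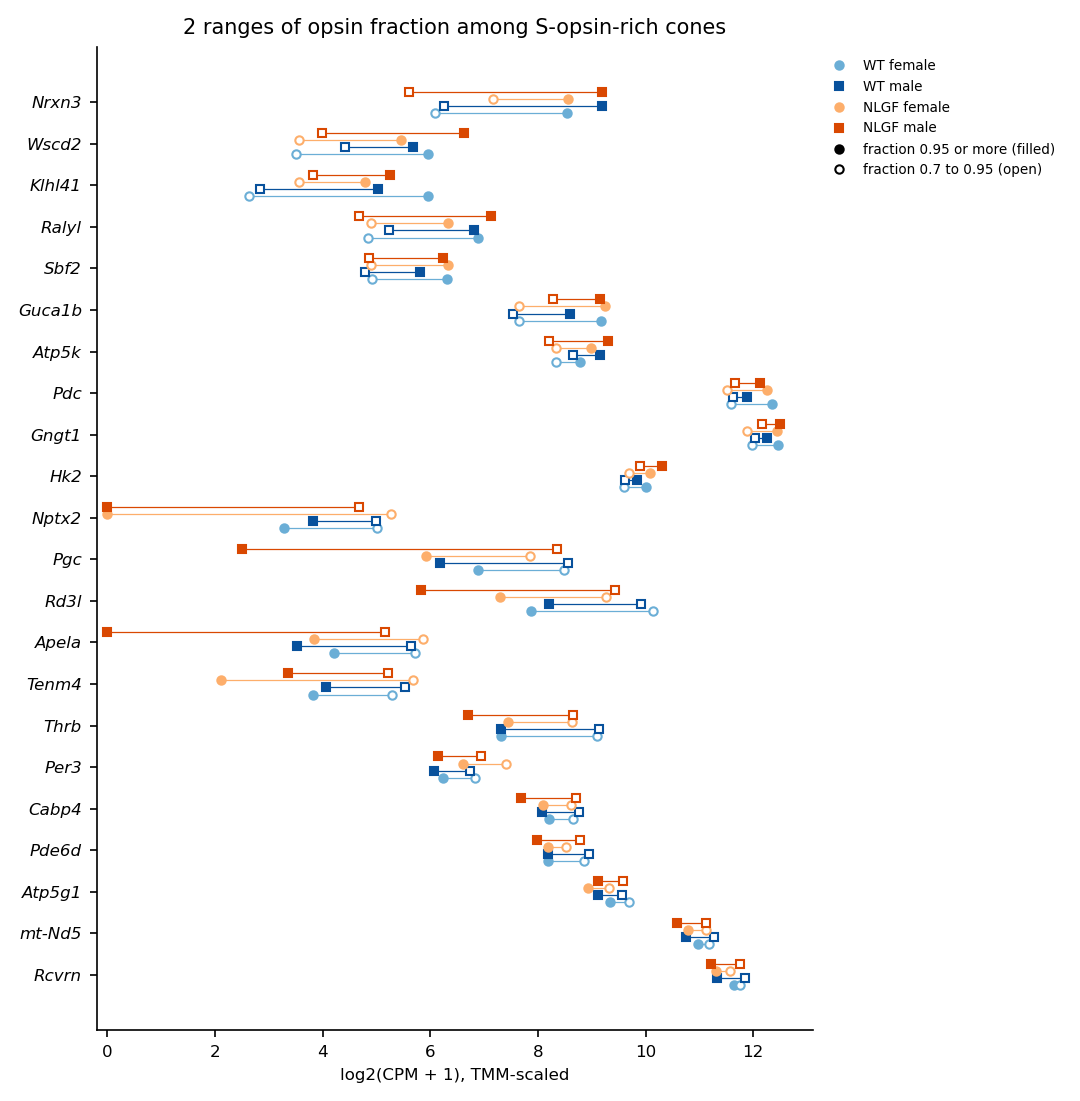
Level of genes given in the text that passed the threshold, other than those named after their values were seen, as log2(CPM + 1) with TMM scaling (horizontal axis), in members with an opsin fraction of 0.95 or more (filled) and of 0.7 to 0.95 (open), by library (colours). The filled marker lies right of the open one in each library from Nrxn3 to Hk2, and left of it from Nptx2 to Rcvrn. For genes named by fold change the naming rule required the same direction in each library.

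Between genotypes no gene of S-opsin-rich cones passed the test. Of 8286 tested genes 0 differed between NLGF and WT at an edgeR adjusted p under 0.05 (0%), and 451 had an unadjusted p under 0.05 (5.44%). DESeq2 also called 0, with 56 at an unadjusted p under 0.05. When a library was left out, which leaves a genotype with 1 animal whose spread is assumed to be like the other's, edgeR called 46 and 31 genes on dropping the WT female or male, and 5 and 12 on dropping the NLGF female or male. Of the opsins, which the rule used, Opn1sw averaged 11305 ± 145 CPM in WT and 11157 ± 1162 CPM in NLGF, and Opn1mw 1608 ± 282 and 1703 ± 59.3 CPM (SD, n = 2 each). App, the edited gene, had 45.8 and 85.2 CPM in the WT female and male and 66.1 and 74.2 CPM in the NLGF female and male, with overlapping genotypes and a log2 fold change of 0.09 ± 0.26 (edgeR adjusted p = 0.988). These counts do not tell the edited allele from the unedited one.

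The genes with the smallest p are given as values. Rd3l had 871 and 674 CPM in the WT female and male and 455 and 524 CPM in the NLGF female and male. Plekhb1, a membrane protein of photoreceptors, had 931 and 906 against 666 and 688 CPM, and Pgk1, a kinase of glycolysis, 411 and 401 against 292 and 305 CPM. Syndig1l had 224 and 191 against 123 and 147 CPM, and Klhdc8b, a kelch protein, 103 and 99.0 against 51.0 and 65.7 CPM. The genotypes did not overlap for these 5 genes, with log2 fold changes from −0.79 to −0.44. Choice by smallest p favours genes with such a separation, so it is a description and no support. The share of all tested genes without overlap was not counted. In the other direction Socs5, a suppressor of cytokine signalling, had 76.7 and 91.0 against 135 and 142 CPM. Retreg3, a receptor of ER turnover by autophagy, had 26.0 and 24.2 against 53.4 and 52.3 CPM. Fbxo38, a ubiquitin ligase subunit, had 12.4 and 9.21 against 29.0 and 29.2 CPM, and Creb3, a transcription factor bound to the ER membrane, 37.1 and 35.7 against 61.5 and 68.1 CPM. The edgeR adjusted p of each of these genes was 0.864.

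Rd3l and Syndig1l also varied with the opsin fraction, so they were read within its ranges. At 0.7 to 0.95 Rd3l had 1126 and 969 CPM in WT and 618 and 690 CPM in NLGF, and at 0.95 or more 232 and 293 CPM in WT and 156 and 55.9 CPM in NLGF. Syndig1l had 258 and 217 CPM in WT and 138 and 168 CPM in NLGF at 0.7 to 0.95, and 140.1 and 158 CPM in WT and 96.4 and 88.5 CPM in NLGF at 0.95 or more. For both genes WT lay above NLGF in each range. Both were picked for a small p over the same cells, so this order is a description and no separate support. Thrb had 434 and 383 CPM in WT and 318 and 324 CPM in NLGF over all members (−0.35 ± 0.10, edgeR adjusted p = 0.864). At 0.7 to 0.95 the genotypes stayed apart for Thrb (545 and 558 against 398 and 402 CPM), and at 0.95 or more they overlapped (158 and 158 against 173 and 102 CPM). The part of members with a fraction of 0.95 or more overlapped between the genotypes, at 29.3% and 43.7% in WT against 38.2% and 29.6% in NLGF. The part of the opsin fraction in these genotype values was not tested.

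No gene of the stress response named in the study's title passed the test between the genotypes of these cones. Of 29 listed PERK/ATF4 genes 15 were measured, 0 passed in either direction and the median log2 fold change was 0.02, against −0.003 over all genes. Atf4, the transcription factor of that response, had 214 and 253 CPM in WT and 198 and 235 CPM in NLGF (−0.11 ± 0.13, edgeR adjusted p = 0.943). Ddit3 had 105 and 138 CPM against 114 and 116 CPM (−0.09 ± 0.17, 0.973), and Hspa5, the main ER chaperone, 563 and 519 against 451 and 608 CPM (−0.03 ± 0.13, 0.988). The genotypes overlapped for each of them. The 95% interval of Atf4 reached from −0.39 to 0.17, that of Ddit3 from −0.46 to 0.28 and that of Hspa5 from −0.33 to 0.27 on the log2 scale. Of 25 ER chaperones 0 passed, with a median of −0.05, and of 13 genes of App processing 0 passed, with a median of 0.09.

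Other lists gave no call either. In cone phototransduction 0 of 23 passed, with a median of −0.04 and values from −0.30 to 0.82. Sag had 5972 and 5954 CPM in WT against 5008 and 5165 CPM in NLGF (−0.23 ± 0.06, edgeR adjusted p = 0.864). In glycolysis 15 of 20 values were negative, with a median of −0.10, where 4184 of all 8286 were negative, and 5 of the 20 had an unadjusted p under 0.05, where 5.44% of all genes did. Of these, Tpi1, triose phosphate isomerase, had 481 and 529 against 363 and 404 CPM (−0.40 ± 0.11). Hk2, also among these, went the other way, with 847 and 841 CPM in WT against 915 and 1033 CPM in NLGF (0.21 ± 0.09). The nuclear respiratory chain had 40 negative values of 56 and a median of −0.07, and the mitochondrially encoded genes 10 of 13 and −0.08. Immediate early genes had a median of 0.14 over 11, clock genes 0.17 over 14 and rod genes 0.17 over 12. Rlbp1, a retinoid carrier of Müller glia, had 19.8 and 4.61 CPM in WT and 76.6 and 19.5 CPM in NLGF, and Mt1, a metallothionein, 16.1, 17.3, 94.0 and 18.2 CPM in the same order. For both the NLGF female stood apart from the other 3 libraries, as it did for the sum of the Müller markers given above (1213 CPM). That sum includes Rlbp1 itself, and the part of Müller RNA in these values was not tested.

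**Figure D5:**
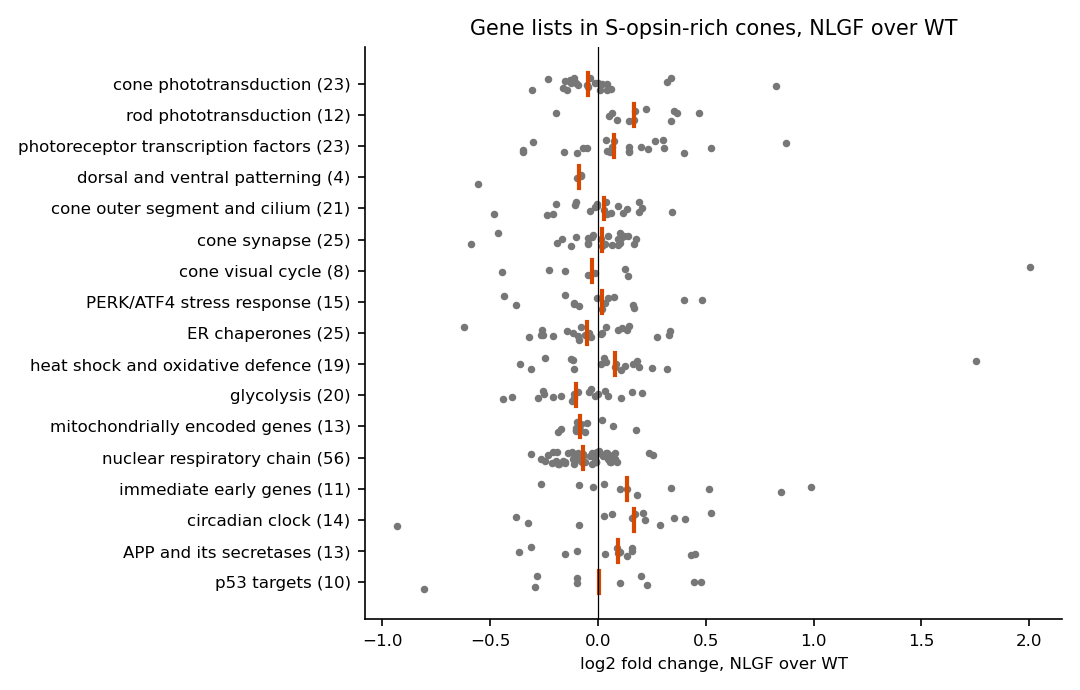
Log2 fold change of NLGF over WT in S-opsin-rich cones (horizontal axis) for each measured gene of the 17 lists (grey points, number measured in parentheses), with the list's median as an orange bar. Medians lie between −0.10 and 0.17, and the 2 points far to the right are Rlbp1 and Mt1, the latter at 1.75.

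The difference of the NLGF effect between S-opsin-rich and M-opsin-rich cones was tested directly. Of 8840 genes 0 passed (0%, edgeR interaction term with the library as a block, adjusted p under 0.05), 262 had an unadjusted p under 0.05 (2.96%), and DESeq2 called 0 with 23 at that level. Leaving out the WT female, the WT male, the NLGF female or the NLGF male gave 23, 9, 3 and 34 calls in edgeR. The smallest p among genes that met the naming rule belonged to Hdx, Eci1 and Fmc1 on the positive side (edgeR adjusted p from 0.667 to 1) and Dqx1, Morc3 and Ankrd54 on the negative side (edgeR adjusted p = 1). Eci1, an enzyme of fatty acid oxidation, had 32.3 and 27.5 CPM in WT and 39.3 and 42.6 CPM in NLGF S-opsin-rich cones, and 51.1, 57.9, 21.0 and 29.1 CPM in M-opsin-rich cones. Rlbp1 had the largest value of the lists, 4.69 ± 0.81 (edgeR adjusted p = 0.200). The 7 Müller markers, of which Rlbp1 is itself 1, had 308 and 478 CPM in WT and 407 and 1213 CPM in NLGF S-opsin-rich cones. In M-opsin-rich cones they had 1000 and 1589 CPM in WT and 230 and 306 CPM in NLGF. The part of Müller RNA in the value of Rlbp1 was not tested. Thrb had a difference of 0.12 ± 0.18, Atf4 of −0.10 ± 0.20 and Ddit3 of −0.11 ± 0.26 (edgeR adjusted p = 1 for each).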

How the data were processed

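The authors deposited UMI counts per gene and barcode, a matrix for each library, over 32285 genes. The file headers record Cell Ranger 6.1.1, while Cell Ranger 3.1.0, STAR and mm10 stand in the submitters' processing notes. Counts were summed per library and class and tested with edgeR 4.0.16 (TMM, filterByExpr, quasi-likelihood, Benjamini-Hochberg, threshold 0.05). The 7 genes of the rule stayed in the library sizes and out of the tests. SE is the absolute log2 fold change over the square root of F, and 95% intervals of it use the fit's own degrees of freedom. CPM carry TMM factors unless called raw or given for a marker or rule gene. The test was checked on simulated counts.

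Members, gene lists and rules were chosen with earlier results of these data known. Named genes were those past the threshold with the largest fold change in each direction, up to 12 between the classes, 8 between genotypes and 5 otherwise, filled to 5 or 3 by smallest p. They excluded sex-linked, mitochondrial and unnamed genes and those under 0.5 times their level over all barcodes. Genes taken by fold change between the classes and between the ranges also had to keep the same sign in all 4 libraries. App, Thrb, Rxrg, Atf4, Ddit3, Hspa5 and list members by p were added, and some genes that the rule names are not reported here. Calu, Atp6v1f, Flnc, Kcne2 and genes called in both comparisons were named after their values were seen. Scrublet's automatic threshold marked 0 members, so an alternative left out the top 6% of scores.

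Positions are from GENCODE on GRCm38, where 32235 gene IDs matched. Library totals were 19128388 to 23473093 UMIs. Each genotype had 2 animals, which limits the precision of every comparison between genotypes.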

Additional observations from a re-analysis of the deposited data

How the results depend on the processing

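Of the values for named genes under all alternatives run, 0 changed direction. The count of genes past the threshold between genotypes was 0 and became 55 with no filter on low counts, 1 at an opsin fraction of 0.9 or more, and 5 to 46 when each library was left out in turn. For listed genes that count was 0, then 5 with no filter and 0 to 12 with a library left out. For the difference of effects it was 0, then 40 with no filter, 3 at a fraction of 0.9 or more, and 3 to 34 with a library left out. Between the classes the count of 94 became 41 with DESeq2, 254 with no filter, 177 without the top 6% of Scrublet scores, 165 without barcodes rich in markers of other types, 231 at a fraction of 0.9 or more, and 62 to 139 with a library left out. Its 14 listed genes became 9, 35 and 32 under the first 3 of these, 38 at a fraction of 0.9 or more, and 8 to 18. Between the ranges the count of 121 became 47 with DESeq2, 242 with no filter and 52 to 91 with a library left out. Its 13 listed genes became 33 with no filter, 26 without the top Scrublet scores, 24 without barcodes rich in markers of other types, and 4 to 20. The cause was not tested. Leaving out barcodes rich in markers of other types, and asking for 20 opsin UMIs between the ranges, were chosen after seeing the data.

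The genotypes share the numbers 1 (female) and 2 (male) only. With sex as a replicate block 0 genes passed between genotypes, and the deviations of same-numbered libraries correlated at r = 0.0837 over 8286 genes. Without the library block the counts were 85 between the classes, 0 for the difference of effects and 120 between the ranges. The difference in share lay between 2.11 and 9.82 points over the alternatives and between 4.27 and 13.5 points with a library left out.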
